A study of Mus musculus with 6 samples.

Results

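The 10 microRNAs described here, of neurons and their progenitors, were followed in the dentate gyrus (DG) of mice, with and without status epilepticus brought on by kainic acid (KA-SE). On the card they are mmu-miR-9, mmu-miR-124, mmu-miR-137, mmu-miR-128a, mmu-miR-129-3p, mmu-miR-129-5p, mmu-miR-153, mmu-miR-7a, mmu-miR-7b and mmu-miR-218, and the prefix is left out from here on. They were chosen by name, as the 10 assays so called among the 381 assays of the card, and all 10 amplified in every library. Each of the 6 libraries came from the right DG of 1 male C57/Black6J mouse of 6 to 8 weeks, taken 72 h after intraperitoneal injections. The saline group held 3 mice. The KA-SE group held 3 mice given repeated low doses of kainic acid, a glutamate receptor agonist that provokes seizures, and kept in the study only when they met its seizure score. The tissue was dissected by hand, so it holds granule neurons and newborn neurons together with glia, vessel cells and other cells, and the assays do not tell these apart.

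MicroRNAs are short RNAs that pair with messenger RNAs through their seed, the bases near their 5′ end, and lower the amount of protein made. These 10 are enriched in brain neurons or act when neural stem cells become neurons. In the DG, where neurons are born in adult life, miR-9 and miR-124 are known for driving progenitors towards a neuronal fate, and miR-137 for acting on proliferation and dendrite growth. The others are known from mature neurons, where they act on excitability and synapses.

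The mature sequences are shown because each assay reads 1 such strand and because the comparisons further on set relatives and arms of a single precursor side by side. RefSeq (GRCm38.p6) gave a mature sequence for 9 of the 10 names. The seed, bases 2 to 8 counted from the 5′ end, is in capitals. The assay primers are not part of the data used here.
miR-9: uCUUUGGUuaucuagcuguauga
miR-137: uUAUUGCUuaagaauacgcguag
miR-128a: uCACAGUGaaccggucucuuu
miR-129-5p: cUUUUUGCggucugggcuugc
miR-129-3p: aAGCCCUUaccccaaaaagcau
miR-153: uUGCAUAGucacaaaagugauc
miR-7a: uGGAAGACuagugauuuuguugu
miR-7b: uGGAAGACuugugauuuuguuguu
miR-218: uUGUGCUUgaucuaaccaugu

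These 9 sequences hold 8 distinct seeds, and the pair that shares one is miR-7a and miR-7b. Over the 23 positions the miR-7 sequences have in common they differ by the substitution A10U (miR-7a base first, positions from the 5′ end), and miR-7b has 24 bases in this annotation against 23. The other relatives are the arms of one precursor. The hairpin Mir129-2 lies on the minus strand at chr2:94241364-94241453 (GRCm38.p6), within the long noncoding RNA gene Mir670hg. It is printed here with both arms in capitals, miR-129-5p at bases 15 to 35 and miR-129-3p at bases 57 to 78 of 90.
Mir129-2: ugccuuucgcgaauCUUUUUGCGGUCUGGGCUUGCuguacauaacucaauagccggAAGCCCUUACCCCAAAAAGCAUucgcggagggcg
The second precursor, Mir129-1 on chromosome 6, contains the same miR-129-5p sequence and does not contain the miR-129-3p sequence letter for letter.

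The 10 microRNAs come from 17 annotated loci, of which 12 lie within the span of another gene and 6 within a protein-coding one. miR-218 has its loci in Slit2 (chromosome 5) and Slit3 (chromosome 11), genes of axon guidance ligands. miR-128a has its loci in R3hdm1 (chromosome 1) and in Arpp21 (chromosome 9), a gene of neurons. miR-153 lies in Ptprn2 (chromosome 12), which codes for a secretory vesicle protein, and a miR-7a locus lies in Hnrnpk (chromosome 13). miR-9 has 3 loci, on chromosomes 3, 7 and 13, each within a long noncoding RNA gene, and miR-124 has 3, on chromosomes 2, 3 and 14. miR-137 has 1 locus, on chromosome 3, outside the span of other coding or long noncoding genes in RefSeq.

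The card gives a threshold cycle (Ct) for each assay, the number of PCR cycles needed to reach a fixed fluorescence. Less RNA needs more cycles, and 1 cycle is a factor of 2 where each cycle doubles the product. By mean raw Ct over the 6 libraries miR-9 came first of all 281 microRNAs that passed the limit of a Ct below 35 in every library, at 15.1, and miR-218 was the third, at 15.8. miR-129-3p (19.1), miR-128a (19.1), miR-124 (19.9) and miR-137 (20.1) held ranks 37, 38, 46 and 52. miR-7b (23.8), miR-129-5p (23.8) and miR-7a (24.6) lay near the middle, at ranks 143, 145 and 170, and miR-153 (27.6) at rank 237.

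Assays can differ in efficiency, so this is an order of readings and not strictly of abundance. Within each of the 6 libraries miR-9 came before miR-218, by 0.493 to 1.24 cycles, miR-137 before miR-7b, by 3.12 to 4.09 cycles, and miR-7a before miR-153, by 1.83 to 5.01 cycles. Some neighbours changed places between libraries. miR-129-3p came before miR-128a in 1 library and after it in 5, and miR-7b came before miR-129-5p in 2 and after it in 4. Between miR-124 and miR-137 the order followed the groups in part, and this pair is compared within libraries after the groups.

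A level is given here relative to the small nuclear RNA U6 of that library (Ct of U6 minus Ct of the microRNA), in cycles on a log2 scale, so that values nearer to 0 mean more microRNA. The raw Ct of U6 was 12.9, 13.9 and 13.4 in saline replicates 1, 2 and 3 and 12.8, 13.6 and 13.3 in KA-SE replicates 1, 2 and 3. Its groups differed by -0.163 cycles (KA-SE minus saline, p = 0.7 by a two-sided exact permutation, which cannot go below 0.1 with 3 mice against 3), and by 0.0805 without saline replicate 2. Relative to U6, the other control RNAs differed in Ct by -0.120 (snoRNA135), -0.094 (snoRNA202), -0.206 (U87) and -0.745 cycles (Y1), with exact permutation p of 0.6, 0.7, 0.5 and 0.1. Saline replicate 2 differed from the rest in most microRNAs. Its tested microRNAs came up later than the mean of the other saline libraries by a median of 2.23 cycles, and its U6 by 0.730 cycles. The differences between the groups are therefore given with and without that library.

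The neuron-enriched microRNAs were not shifted evenly in saline replicate 2. miR-153 came up 4.85 cycles later than in the other saline libraries, miR-218 3.62, miR-124 3.51, miR-137 3.39, miR-9 3.05, miR-7a 2.96, miR-7b 2.94 and miR-128a 2.43 cycles later. Both arms of miR-129 lagged least, by 1.22 cycles for miR-129-3p and 1.17 cycles for miR-129-5p. In all, 8 of the 10 lagged by more than the median microRNA, against 49.8% of all tested, and 4 lagged by more than the upper quartile of 3.19 cycles. The cause of this delay was not tested.

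**Figure D1:**
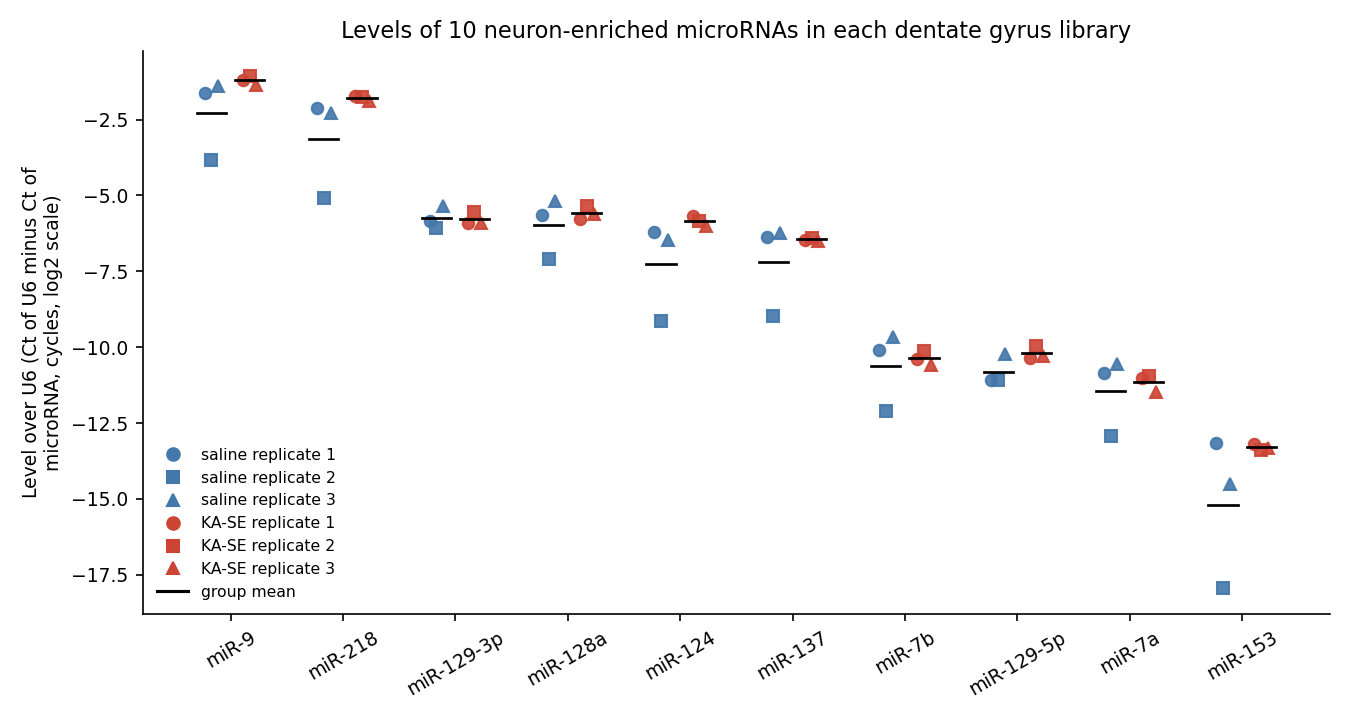
Level over U6 (Ct of U6 minus Ct of the microRNA, in cycles on a log2 scale) of the 10 microRNAs in each library, with saline in blue, KA-SE in red, a marker shape per replicate and a black line at each group mean. Saline replicate 2 (blue squares) is the lowest point for every microRNA, down to -17.94 for miR-153, and the KA-SE libraries lie close together, with an SD of 0.06 to 0.29 cycles.

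No neuron-enriched microRNA passed the test for a difference between KA-SE and saline mice. Over U6 the log2 fold change was above 0 for 9 of the 10, and it had a median of 0.67 and a range from -0.03 for miR-129-3p to 1.89 for miR-153. Of all 281 microRNAs tested 87.2% were positive, with a median of 0.62, a share and a median near those of the 10. Without saline replicate 2, 5 of the 10 were positive, with a median of 0.08, against 62.6% and a median of 0.12 over all. Relative to the global mean of the tested microRNAs 5 of the 10 were positive, with a median of 0.02, against 45.9% and a median of -0.04 over all. In bulk tissue, fewer cells of a type and less of the RNA in each cell cannot be told apart.

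The test was limma with Benjamini-Hochberg adjustment over all 281 microRNAs, and a call asked for both a fold of 1.5 or more and an adjusted p below 0.05. It called 0 of 281 (0%), and 0 of the 10. At an unadjusted p under 0.05 it gave 7 microRNAs higher (2.49%) and 1 lower (0.356%) after KA-SE, none of them among the 10, and the methods' t-test gave 6 and 0, also with none of the 10. Without saline replicate 2 it was 8.54% of all tested and 0 of the 10. Over the global mean without saline replicate 2 it was 12.5% of all tested and 2 of the 10. These were miR-7a and miR-7b, at an unadjusted limma p of 0.0244 and 0.0241, with an adjusted p of 0.387 each. Of the 10, miR-124 had the smallest unadjusted p in the limma fit (0.113, adjusted 0.556), and the adjusted p of the 10 ran from 0.295 to 0.993 over 20 alternatives. The limma intervals stayed wide at 3 mice per group. For miR-124 the 95% interval ran from 0.742-fold to 9.68-fold, and for miR-129-3p, the narrowest, from 0.492-fold to 1.95-fold.

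**Figure D2:**
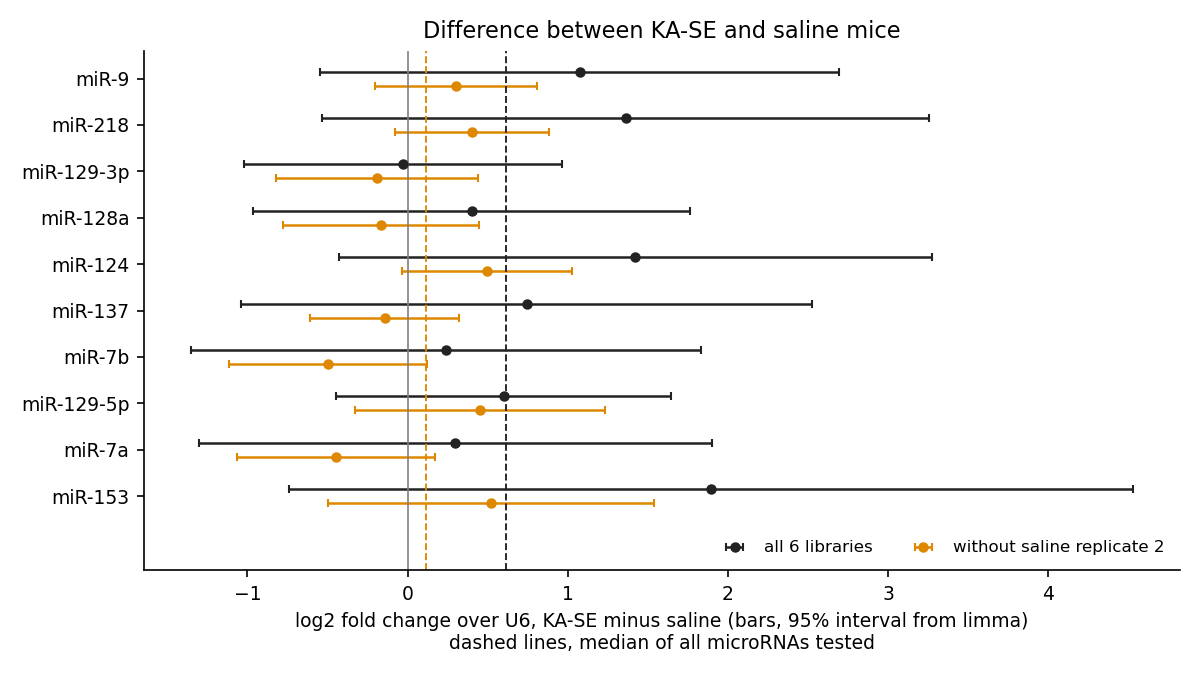
Log2 fold change over U6 (KA-SE minus saline) of the 10 microRNAs with its 95% interval from limma, with all 6 libraries in black and without saline replicate 2 in orange. The dashed lines mark the medians of all 281 microRNAs tested, 0.62 and 0.12, and each of the 20 intervals includes 0.

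miR-124, miR-218 and miR-9 were the 3 of the 10 whose KA-SE levels over U6 all lay above the whole saline range. Of all 281 microRNAs 19.2% did so. miR-124 restrains the splicing factor Ptbp1 and so favours the neuronal splicing program. Its level was -6.21, -9.12 and -6.47 in saline replicates 1, 2 and 3 and -5.68, -5.83 and -6.02 in KA-SE replicates 1, 2 and 3. The lowest KA-SE value lay 0.19 cycles above the highest saline value. The difference was 1.42 ± 0.79 on the log2 scale (SE), a fold of 2.68 (adjusted p = 0.556 by limma). It was 0.50 without saline replicate 2 and 0.77 over the global mean.

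miR-218, which acts in motor neurons and on excitability, was close to miR-124 in pattern. Its level was -2.11, -5.07 and -2.27 in the saline libraries and -1.72, -1.74 and -1.90 in the KA-SE libraries. The groups were 0.20 cycles apart at their nearest. The difference was 1.36 ± 0.81 on the log2 scale (adjusted p = 0.556 by limma), and 0.40 without saline replicate 2.

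miR-9, which acts against the progenitor factor Nr2e1 (TLX), had levels of -1.61, -3.83 and -1.40 in the saline libraries and of -1.19, -1.08 and -1.35 in the KA-SE libraries. The groups did not overlap, but the nearest values were only 0.050 cycles apart. The difference was 1.08 ± 0.69 on the log2 scale (adjusted p = 0.556 by limma), and 0.30 without saline replicate 2.

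Over the global mean the same 3 microRNAs were separated upwards, as were 12.8% of all tested, and 12.1% were separated downwards, with none of the 10. Leaving out saline replicate 2 could not end the separation, since that library holds the lowest saline value of all 3, and the share over all tested was then 19.6%. The separation depended on the reference. Over the mean of snoRNA135 and snoRNA202, 0 of the 10 were separated, against 17.4% of all tested in either direction, and in raw Ct 0 of the 10, against 9.96%.

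miR-153, which acts on vesicle release and alpha-synuclein, had the widest spread. Its level was -13.15, -17.94 and -14.50 in the saline libraries and -13.20, -13.40 and -13.31 in the KA-SE libraries. The saline libraries spanned 4.79 cycles while the KA-SE libraries spanned 0.205, and saline replicate 1 lay above all of the KA-SE libraries. The difference of 1.89 ± 1.12 on the log2 scale had rank 14 from the highest among the tested microRNAs (adjusted p = 0.556 by limma), and it was 0.52 without saline replicate 2.

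miR-137, named with miR-124 in the title of the series, had levels of -6.38, -8.97 and -6.23 in the saline libraries and of -6.46, -6.39 and -6.50 in the KA-SE libraries. Apart from saline replicate 2 all libraries lay within 0.27 cycles. Its difference was 0.74 ± 0.76 on the log2 scale over all 6 libraries (adjusted p = 0.625 by limma), and -0.14 without saline replicate 2, so its sign rested on that library.

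The miR-7 microRNAs, which act on alpha-synuclein and on growth factor signalling, had the lowest differences without saline replicate 2. miR-7a had levels of -10.84, -12.93 and -10.56 in the saline libraries and of -11.01, -10.95 and -11.48 in the KA-SE libraries. miR-7b had levels of -10.10, -12.09 and -9.65 in the saline libraries and of -10.39, -10.14 and -10.59 in the KA-SE libraries. Over all 6 libraries the groups overlapped for both, with differences of 0.30 ± 0.68 and 0.24 ± 0.68 on the log2 scale, and the sign turned without saline replicate 2, to -0.45 and -0.50, and over the global mean, to -0.36 and -0.41. Without saline replicate 2, miR-137, miR-7a and miR-7b were lower in every KA-SE library than in both remaining saline libraries, against 8.90% of all tested, by 0.0090, 0.115 and 0.040 cycles at the nearest.

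miR-128a, which restrains excitability through ion channel and kinase genes, had levels of -5.63, -7.11 and -5.18 in the saline libraries and of -5.76, -5.34 and -5.61 in the KA-SE libraries. The groups overlapped, and the difference of 0.40 ± 0.58 on the log2 scale turned to -0.17 without saline replicate 2 and to -0.25 over the global mean.

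The arms of miR-129 differed from the others in that saline replicate 2 hardly stood apart over U6. miR-129-3p had levels of -5.84, -6.08 and -5.34 in the saline libraries and of -5.91, -5.53 and -5.91 in the KA-SE libraries. Its difference was -0.03 ± 0.42 on the log2 scale (adjusted p = 0.959 by limma), and -0.19 without saline replicate 2. It was -0.69 over the global mean, the lowest of the 10 on that scale, and 0.13 in raw Ct. Over the global mean saline replicate 2 did stand apart, at 5.73 against 4.35 and 4.76 in saline replicates 1 and 3. Without that library the difference on that scale was -0.29, and miR-7b (-0.60) was then the lowest of the 10. miR-129-5p, which lowers the potassium channel Kv1.1 and other synaptic targets, had levels of -11.08, -11.10 and -10.23 in the saline libraries and of -10.35, -9.96 and -10.30 in the KA-SE libraries. Saline replicate 3 lay among the KA-SE values. The difference of 0.60 ± 0.45 (adjusted p = 0.556 by limma over U6) was 0.45 without saline replicate 2. It turned to -0.054 over the global mean, and was 0.35 on that scale without saline replicate 2.

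**Figure D3:**
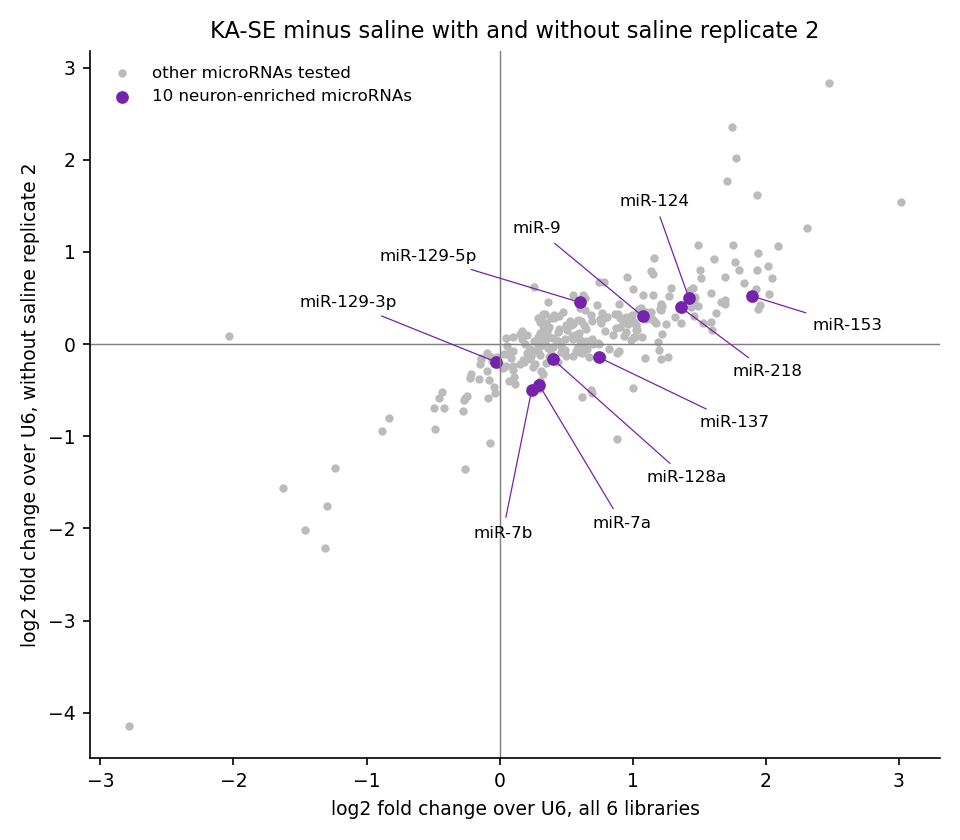
Log2 fold change over U6 (KA-SE minus saline) with all 6 libraries on the horizontal axis and without saline replicate 2 on the vertical axis, for the 10 microRNAs (purple) and the other tested microRNAs (grey). miR-137, miR-128a, miR-7a and miR-7b change sign, from 0.74, 0.40, 0.30 and 0.24 to -0.14, -0.17, -0.45 and -0.50.

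A difference in Ct between members of 1 library needs no reference RNA, and 4 such pairs were compared between the groups with a two-sided exact permutation test adjusted over the 4. The smallest p this design allows is 0.1, so no pair can pass 0.05. Of all 39340 pairs of tested microRNAs 23.9% had groups that did not overlap, and of the 45 pairs among the 10, which share members, it was 18.

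The arms of miR-129 lay closer together in Ct in the KA-SE mice. The miR-129-5p sequence is in both precursors and the miR-129-3p sequence in the printed one. miR-129-5p came up after miR-129-3p by 5.24, 5.02 and 4.89 cycles in saline and by 4.44, 4.42 and 4.40 cycles in KA-SE. The groups did not overlap, and the KA-SE values lay within 0.042 cycles. The means were 5.05 ± 0.18 and 4.42 ± 0.02 cycles (SD, n = 3 each), a difference of -0.631 cycles (exact permutation p = 0.1, adjusted p = 0.2), and -0.646 without saline replicate 2.

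miR-137 and miR-124 lay further apart in Ct in the KA-SE mice. Ct of miR-137 minus Ct of miR-124 was 0.171, -0.152 and -0.236 cycles in saline and 0.777, 0.556 and 0.485 cycles in KA-SE. Every KA-SE library had more miR-124 signal relative to miR-137 than any saline library. The means were -0.072 ± 0.21 and 0.606 ± 0.15 cycles (SD, n = 3 each), a difference of 0.678 cycles (exact permutation p = 0.1, adjusted p = 0.2), and 0.639 without saline replicate 2.

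The other pairs overlapped. miR-7a came up after its paralog miR-7b by 0.734, 0.838 and 0.913 cycles in saline and 0.621, 0.809 and 0.885 cycles in KA-SE, a difference of -0.057 cycles (exact permutation p = 0.6, adjusted p = 0.6), and -0.052 without saline replicate 2. Cross-reading of such near-identical sequences by the 2 assays was not tested. miR-124 came up after miR-9 by 4.597, 5.294 and 5.068 cycles in saline and 4.49, 4.76 and 4.67 cycles in KA-SE, a difference of -0.348 cycles (exact permutation p = 0.3, adjusted p = 0.4), and -0.194 without saline replicate 2.

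**Figure D4:**
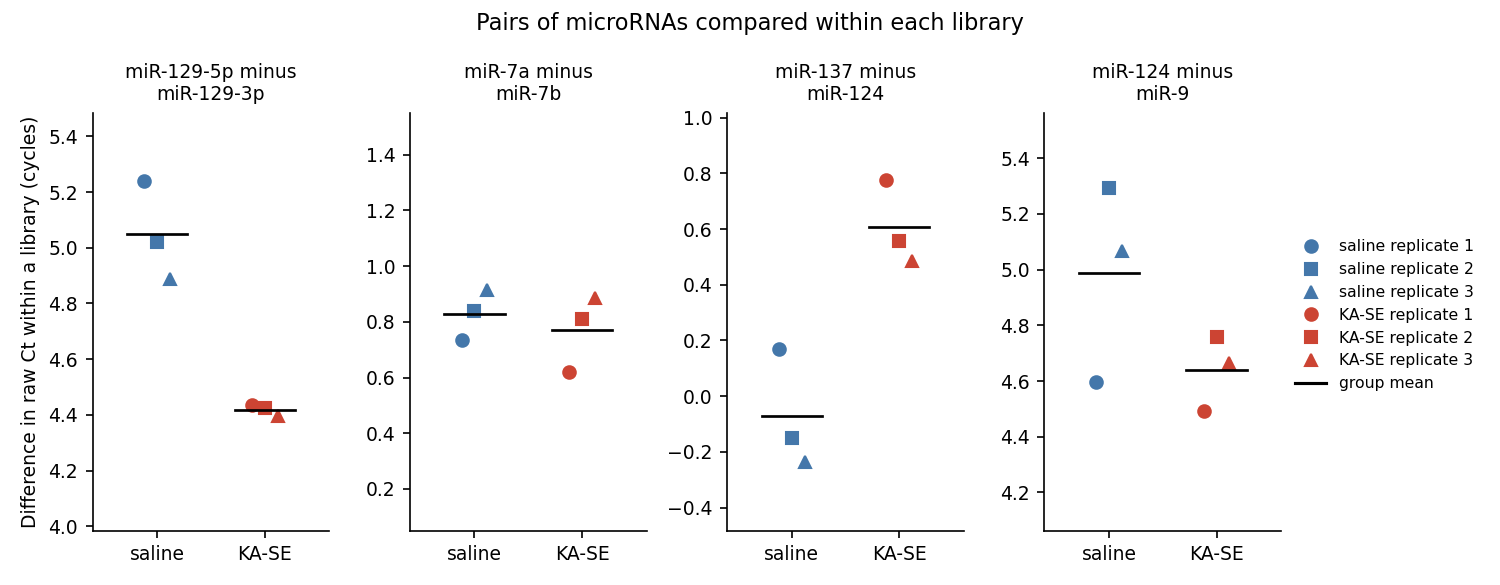
Difference in raw Ct (cycles) between the microRNAs of 4 pairs within each library, with saline in blue, KA-SE in red, a marker shape per replicate and a black line at each group mean; the vertical axes have the same span and different origins. The groups are apart for miR-129-5p minus miR-129-3p (5.05 and 4.42 on average) and miR-137 minus miR-124 (-0.072 and 0.606), and overlap for the other pairs.

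Some of the 10 kept a nearly fixed distance over all 6 libraries. The difference between miR-124 and miR-218 had an SD of 0.077 cycles and a range of 0.234 cycles, although both were delayed by over 3 cycles in saline replicate 2, and only 0.0483% of all pairs of tested microRNAs had a smaller SD. These 2 microRNAs have no locus in common. miR-7a and miR-7b had an SD of 0.108 cycles (0.297% of pairs smaller), and miR-9 and miR-137 one of 0.227 cycles (4.71% smaller). The arms of miR-129 had an SD of 0.364 cycles, and miR-129-3p and miR-153 the largest of the 45 pairs, at 1.80 cycles. The median SD was 0.679 cycles over the 45 pairs and 0.734 cycles over all pairs. Without saline replicate 2, an alternative chosen after seeing the data, 23 of the 45 SDs moved by over 1.5 times, and the medians were 0.401 and 0.427 cycles. miR-129-3p and miR-153 then had 0.796 cycles, and miR-128a and miR-129-3p went from 0.505 to 0.059 cycles, the smallest of the 45. miR-124 and miR-218 had 0.084, miR-7a and miR-7b 0.119, miR-9 and miR-137 0.252 and the arms of miR-129 0.375 cycles.

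**Figure D5:**
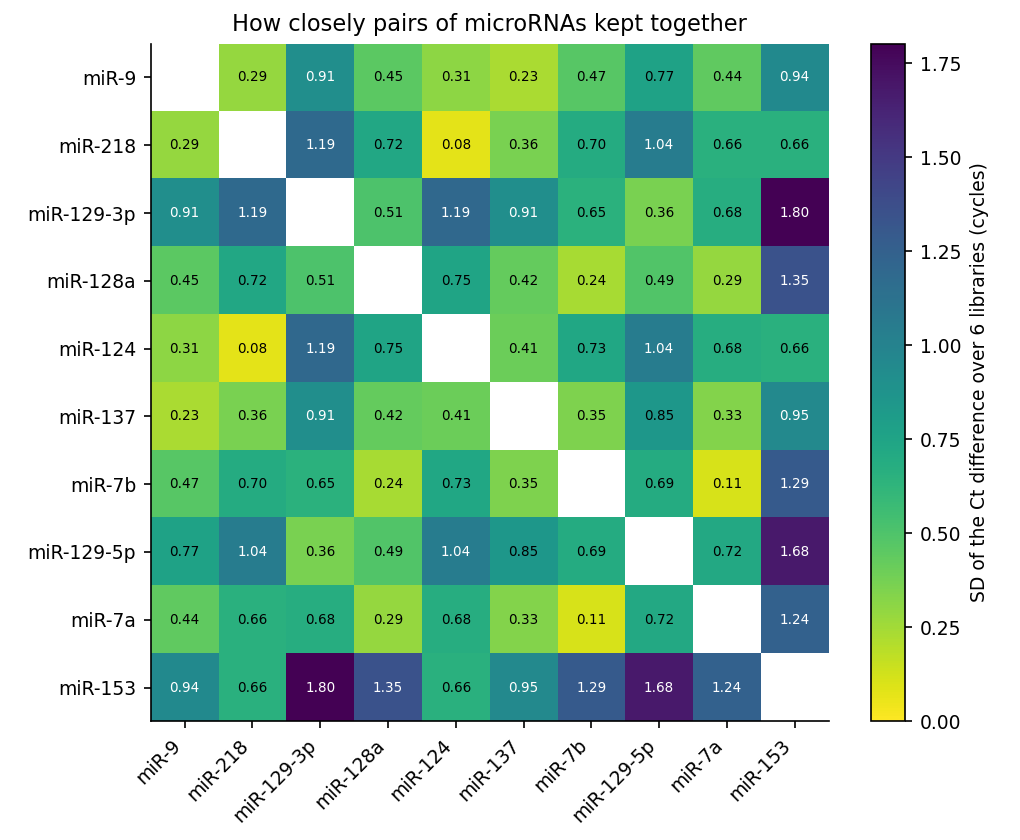
SD over the 6 libraries of the Ct difference between each pair of the 10 microRNAs, in cycles, with yellow for pairs that kept together and dark blue for pairs that did not. miR-124 and miR-218 (0.08) and miR-7a and miR-7b (0.11) have the smallest values, and miR-153 has the largest with the arms of miR-129 (1.80 and 1.68, or 0.796 and 0.813 without saline replicate 2).

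The microRNAs outside the 10 with the pattern most like that of miR-124 were miR-19a, miR-301a and miR-34a. Likeness was measured as the root mean square difference between levels over the global mean, each centred over the 6 libraries, and was 0.115, 0.147 and 0.148 cycles against a median of 0.746 over 271 microRNAs. For miR-137 they were miR-872, miR-301b and miR-338-3p, at 0.092, 0.123 and 0.136 cycles against a median of 0.603. Among the 10, miR-218 was nearest to miR-124 (0.070) and miR-9 nearest to miR-137 (0.208). With saline replicate 2 left out, miR-218 was still the nearest of the 10 to miR-124 (0.075). miR-19a, miR-301a and miR-34a were then at 0.105, 0.135 and 0.156 against a median of 0.367, with ranks 2, 4 and 11. For miR-137 the nearest of the 10 was then miR-128a (0.148), and miR-872, miR-301b and miR-338-3p were at 0.095, 0.062 and 0.149 against a median of 0.274, with ranks 11, 3 and 37. For miR-124 and miR-137 alike, these ranks are among the microRNAs outside the 10.

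Other microRNAs of neurons were compared in the same fit. Of a list of 14 further neuron-enriched microRNAs 11 were tested and 0 were called, with 0 at an unadjusted limma p under 0.05. A positive difference over U6 was found for 9, with a median of 0.55, and for 6 without saline replicate 2, with a median of 0.07. Over U6 the groups were separated upwards for 3 of these 11, miR-132 among them, and downwards for 1. Of all 281 tested it was 19.2% upwards and 1.42% downwards. The earliest in Ct, miR-132, which is induced by neuronal activity, had a difference of 0.59, and 0.46 without saline replicate 2, but -0.07 over the global mean. miR-138, which acts on dendritic spines, had 1.04, but 0.37 without saline replicate 2 and 0.38 over the global mean. miR-125b-5p had -0.06, and -0.18 and -0.71 on these settings. Of 12 microRNAs known from neural stem cells, all tested, 0 were called and 9 were positive, with a median of 0.69, and 9 without saline replicate 2, with a median of 0.24. Over U6 the groups were separated upwards for 4 of the 12, miR-195 among them, and downwards for 0, against the same shares of all tested. let-7b and let-7d, which favour differentiation, had -0.25 and -0.04, and miR-195 had 0.79. Without saline replicate 2 the values were -0.56, -0.47 and 0.28.

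MicroRNAs of other cell types were measured beside the 10. Of the 20 tested from lists for glia, leukocytes, vessels, choroid plexus and erythrocytes 18 were positive, with a median of 0.81, and 14 without saline replicate 2, with a median of 0.09. Groups did not overlap over U6 for 2 of 5 microRNAs of the gliosis list, miR-21 and miR-155. Nor did they for 2 of 4 of the microglia and leukocyte list, miR-142-3p and miR-142-5p. Each was higher in KA-SE (all but miR-142-3p named after their values were seen), as were 19.2% of all 281 microRNAs. The groups overlapped for every tested microRNA of the oligodendrocyte, endothelium, choroid plexus and ependyma, and erythrocyte lists. The differences of miR-21, miR-155, miR-142-3p and miR-142-5p were 1.80, 1.15, 2.02 and 1.46 on the log2 scale. Without saline replicate 2 they were 0.80, 0.76, 0.85 and 0.61. The rest of the gliosis list, miR-222, miR-146a and miR-221, had 0.10, 0.49 and 0.76, and -0.28, -0.06 and 0.27 without that library. The rest of the microglia and leukocyte list, miR-150 and miR-223, had -0.06 and 0.07, and -0.14 and -0.40 without it. miR-223 was then separated downwards, as were 8.90% of all tested. The summed level, which the earliest assays of a list dominate, overlapped between the groups for every other cell type. That of the gliosis list (5 of 5 measured, miR-222, miR-146a and miR-221 earliest) ran from -3.75 to -2.23 in saline and from -2.78 to -2.59 in KA-SE. That of the microglia and leukocyte list (4 of 4, miR-150, miR-223 and miR-142-3p earliest) ran from -4.63 to -4.09 and from -4.58 to -4.32, and that of the oligodendrocyte list (3 of 3) from -10.4 to -8.59 and from -8.88 to -8.55. The endothelial pair (miR-126-3p and miR-126-5p) ran from -4.99 to -3.12 and from -3.52 to -3.32, the choroid plexus and ependyma list (5 of 5, miR-204 earliest) from -4.26 to -3.18 and from -3.94 to -3.72, and miR-451 of erythrocytes from -13.4 to -11.2 and from -11.6 to -11.0. Of the 3 erythrocyte microRNAs listed it was the 1 tested. The lowest summed saline levels without saline replicate 2 were -2.80 for gliosis, -4.62 for microglia and leukocytes, -8.96 for oligodendrocytes, -3.40 for endothelium and -11.5 for erythrocytes, still overlapping, and -3.42 for choroid plexus and ependyma, above all KA-SE values. The summed level of the 10 neuron-enriched microRNAs ran from -2.98 to -0.587 in saline and from -0.465 to -0.232 in KA-SE, with a lowest saline value of -0.679 without saline replicate 2. miR-9 and miR-218, both separated over U6, made up 79.0% to 91.6% of that sum, while 7 of the 10 overlapped between the groups. All sums were taken over U6 only. Over the mean of snoRNA135 and snoRNA202, 0 of the 10 were separated, so the gap between the groups in this sum is given for U6 alone. The summed level of the further neuron-enriched list ran from -1.23 to -0.344 in saline and from -0.488 to -0.251 in KA-SE. That of the neural stem cell list ran from -4.09 to -2.67 and from -3.26 to -2.95. Both sums overlapped between the groups, with and without saline replicate 2. The part of other cell types in the differences was not tested.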

How the data were processed

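RNA (800 ng) from the right DG of each mouse was run on 1 TaqMan microRNA card per mouse (381 assays, of which 335 name mouse microRNAs, 40 rat microRNAs and 6 are controls). The authors deposited raw Ct values, with 40 for no amplification, and a normalized Ct table. The raw values were used here. Ct holds no read counts, so precision rests on the number of mice. The deposited fold-change table holds the authors' own comparison and was not used; of the sample columns 0 stayed unused. Within a library, raw minus deposited normalized Ct varied over the 10 microRNAs by 0.559 to 1.06 cycles. The methods name RNU6B, which was not found among the assay names, so U6 of the card served as reference.

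The 281 microRNAs (262 mouse, 19 rat) that stayed below a Ct of 35 throughout were compared with limma 3.58.1 in R 4.3.3, after the code was tested on simulated data. The methods' t-test assumed equal variances. The labels give 1 sample per mouse. Text names all 10 members, the controls, up to 3 microRNAs of lowest mean Ct per further list, and the 3 nearest in pattern to miR-124 and miR-137. Members and lists were chosen with earlier results of these data known. Other references, detection limits, tests, a replicate block and leaving out each library were tried. Mature sequences, the hairpin and loci are from RefSeq (GRCm38.p6), matched by name.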

Additional observations from a re-analysis of the deposited data

How the results depend on the processing

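With 3 mice per group, the 95% intervals over U6 of all 10 microRNAs included 0. Of the values of the 10 under 20 alternatives, 177 kept their sign and 23 turned. miR-9, miR-124, miR-153 and miR-218 were positive under all 20. These counts include alternatives under which no sign could turn. A change of detection limit, test, block or fold limit alone left the log2 fold changes of the 10 as they were. Only another reference or normalization, or leaving out a library, could turn a sign. The number of called microRNAs was 0 except with a Ct below 35 in at least 3 libraries (317 tested) and with no detection limit (375 tested), where it was 1 (miR-296-3p, named after its values were seen, amplified in 0 saline and 3 KA-SE libraries). It stayed at 0 when each library was left out in turn. The median of the 10 then ran from 0.08 to 1.06, and was lowest without saline replicate 2.

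miR-128a turned to -0.25 over the global mean, -0.32 over the median, -0.11 after quantile normalization and -0.27 over the global mean without saline replicate 2. miR-7a turned to -0.36, -0.43, -0.44 and -0.55 and miR-7b to -0.41, -0.48, -0.42 and -0.60 under these settings in the same order. miR-129-5p turned to -0.054 over the global mean and -0.12 over the median, miR-129-3p to 0.13 in raw Ct, and miR-137 to -0.25 over the global mean without saline replicate 2. With each library left out, values ran from -0.17 to 0.80 for miR-128a, -0.19 to 0.18 for miR-129-3p, -0.14 to 1.22 for miR-137, -0.45 to 0.74 for miR-7a and -0.50 to 0.72 for miR-7b. The sign turned without saline replicate 2, except for miR-129-3p, where it turned without saline replicate 3, KA-SE replicate 1 or KA-SE replicate 3. The U6 difference ran from -0.411 to 0.0805 cycles and turned without saline replicate 2 or KA-SE replicate 1. The cause was not tested.

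The pair difference of miR-7a and miR-7b turned to 0.0218 after quantile normalization and 0.279 in the deposited normalized table, and ran from -0.113 to 0.0187 with each library left out (above 0 without KA-SE replicate 1); that of miR-124 and miR-9 turned to 0.0973 in the deposited table. Those of the miR-129 arms and of miR-137 and miR-124 kept their sign, at -0.712 to -0.536 and 0.593 to 0.80 with each library left out, -0.544 and 0.678 after quantile normalization, and -0.933 and 0.478 in the deposited table.

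At an unadjusted p under 0.05 limma gave 8 microRNAs, 25 over the global mean, 27 over the median, 24 after quantile normalization, 3 over the snoRNAs, in raw Ct or with trend and robust variances, 4 with a Ct below 32, 35 over the global mean without saline replicate 2, and 32, 24 and 23 without saline replicates 1, 2 and 3 and 2, 4 and 4 without KA-SE replicates 1, 2 and 3. Replicate numbers are shared between the groups. The deviations of same-numbered libraries had r of 0.189, 0.236 and 0.047. Those of differently numbered libraries ran from -0.291 (saline replicate 1 with KA-SE replicate 2) to 0.032 (saline replicate 1 with KA-SE replicate 3). The highest r of each library was with its own number, but all r were small. This is at most a weak hint from the data and not the design, and it does not show a pairing. With the replicate number as a block, 0 microRNAs were called and 33 were at an unadjusted p under 0.05.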
